A study of Mus musculus with 192 samples.

Results

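The cytosolic ribosomal protein genes were examined in a list of accessible chromatin windows from Pi-ATAC, which joins antibody staining and single-cell sorting to transposase-based profiling of open chromatin. Members were the protein-coding genes with a symbol of Rpl or Rps and a digit, apart from the Rps6k kinases and names with a ps suffix. This gave 81 of 22350 protein-coding genes, of which 79 had several exons and 2, Rpl10l and Rps4y2, had a single exon. The symbols covered 72 canonical proteins, 30 of the small and 42 of the large subunit, and 8 paralogs. The remaining gene, Rps19bp1, encodes a protein that binds Rps19 and is no part of the ribosome, although its name meets the rule.

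The cells were 4T1, a mouse breast cancer line sorted for EpCam, and splenocytes sorted for CD45. The spleen came from an MMTV-PyMT transgenic animal that had no tumour. In MMTV-PyMT mice a mammary tumour virus promoter drives the polyoma middle T oncogene in the mammary gland. The cells of both kinds were mixed, fixed and transposed together before sorting into wells, and the sample titles give 96 cells of each kind (95 and 97 by source name, since 1 cell is titled as 4T1 and sourced as a splenocyte). Peak names do not separate the groups, so the list was read as both kinds of cell pooled, and no difference between them could be tested. Among markers of the cells, Epcam, Cdh1, Krt8, Krt18, Cd79a, Cd74, Cd3e and Coro1a had at least 1 window at their promoters. Ptprc, the gene of CD45, had 0 there and 3 elsewhere in the gene or within 10 kb of it.

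Ribosomal proteins of the small subunit surround the RNA that decodes mRNA, and those of the large subunit surround the RNA that joins amino acids. Cells need them in equal numbers, and most mammalian ribosomal protein genes are transcribed in nearly every cell type from short genes whose introns often carry small nucleolar RNAs. Their mRNAs typically begin with a C followed by a run of pyrimidines, the 5′ terminal oligopyrimidine (TOP) tract, through which growth signals control their translation.

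Windows were 500 bp long and centred on peak summits, and the list held 50000 of them. A promoter window overlapped the region within 1 kb of any annotated transcript start of a gene by at least 1 bp. Each window was present or absent, with no score, count or depth beside it, so absence means only that no summit there reached the list. Shares are given with the share of all genes of the same kind, and with 95% Wilson intervals that cover counting error over genes only.

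Promoter sequences of 2 members are shown first, since they differ in whether a window reached the gene: Rps19 had promoter windows and Rps26 had none within 36354 bp. Each spans 200 bases of the mm9 (NCBIM37) reference, from 185 before the annotated start to 15 from it on, 5′ to 3′ on the gene's strand. Capitals mark the SP1 word GGGCGG, here on the opposite strand, in Rps19, which begins 139 and 47 bases before the start.
Rps19, chr7:25669205-25669404, plus strand: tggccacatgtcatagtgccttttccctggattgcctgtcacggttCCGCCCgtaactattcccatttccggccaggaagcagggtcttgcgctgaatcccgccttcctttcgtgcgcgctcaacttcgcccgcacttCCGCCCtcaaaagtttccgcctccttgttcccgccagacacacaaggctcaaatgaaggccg
Rps26, chr10:128063548-128063747, minus strand: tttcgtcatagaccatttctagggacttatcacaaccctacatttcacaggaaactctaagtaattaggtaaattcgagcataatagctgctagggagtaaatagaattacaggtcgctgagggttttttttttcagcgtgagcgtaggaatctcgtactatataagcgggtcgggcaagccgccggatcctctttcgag

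Rps19 had 3 windows, and the summits of the first 2, at 269 and 86 bp upstream of a start, came from 1 call. Rps26 did not hold the SP1 word in the bases shown, and the ETS word CCGGAAG lay elsewhere in the longer region searched, which ran from 250 bases before to 50 after the start. It had a GC content of 44.3% in that region, against a median of 55.3% over the multi-exon members.

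Of the 79 multi-exon members, 67 had a promoter window (84.8%, 95% interval 75.3 to 91.1%), whereas 10435 of all 19508 multi-exon genes did (53.5%). The large subunit had 37 of 42 genes with a window (88.1%, interval 75.0 to 94.8%) and the small subunit 25 of 30 (83.3%, interval 66.4 to 92.7%), so the intervals of both subunits overlapped. The share was 86.1% over the 72 canonical genes. At the outermost start of each gene alone, 65 of 79 members had a window (82.3%), compared with 49.7% of all multi-exon genes. Counting each window only for the gene with the nearest start left 60 members with a window (75.9%), compared with 50.3% of all.

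Other housekeeping lists stood at similar levels. The mitochondrial ribosome, whose proteins are encoded by separate nuclear genes, had windows at 66 of 76 genes (86.8%), and the proteasome at 36 of 39 distinct subunit genes (92.3%). By symbol the latter list had 42 entries, with Psmb9 and Psmd14 annotated more than once and Psmc3ip, which encodes no subunit, and 39 of those entries had a window (92.9%). All 32 ribosome biogenesis factors had a window, and so did 18 of 20 genes of a translation list. That list also holds genes that encode no translation factor, among them Hnrnpa1, Nap1l1 and Btf3. Its exceptions were Btf3 and Eef2, the factor that moves the ribosome along mRNA. The interval of the ribosomal protein genes overlapped those of all 4 lists.

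**Figure D1:**
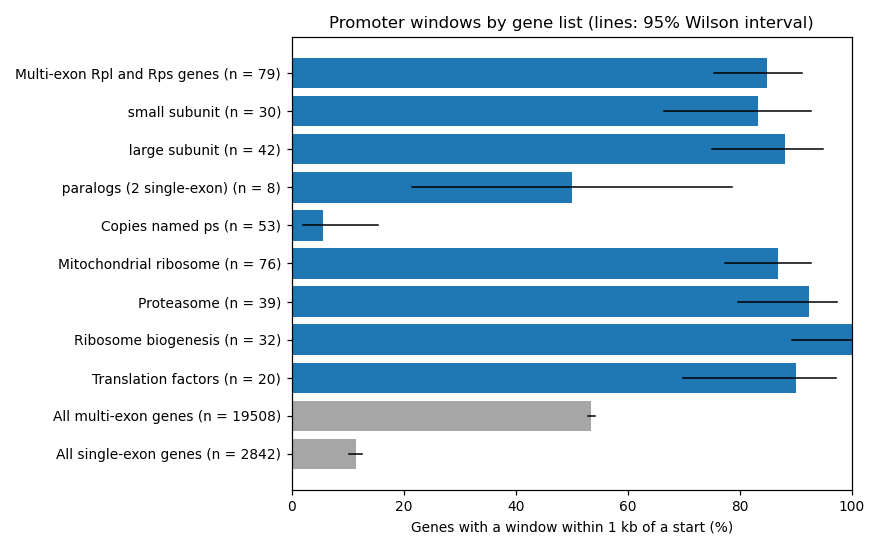
The horizontal axis is the share of genes (in %) with at least 1 promoter window, with a bar for every list and its 95% Wilson interval as a black line. The multi-exon Rpl and Rps genes (84.8%) lie near the mitochondrial ribosome (86.8%) and proteasome (92.3%) and above all multi-exon genes (53.5%), and the copies named ps lie at 5.66%. The bar named translation factors is the translation list, which also holds other genes.

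Most ribosomal protein promoters were rich in CpG dinucleotides, the base step that is depleted from most of the genome. The ratio of observed to expected CpG had a median of 0.838 over the multi-exon members and 0.596 over all multi-exon genes. Among genes with a ratio of 0.6 or more, 53 of 64 members had a window (82.8%, interval 71.8 to 90.1%) and so did 77.5% of all genes, a value inside that interval. Among genes below it, 14 of 15 members had a window (93.3%, interval 70.2 to 98.8%), whereas 29.8% of all genes did. The shares of members and of all genes thus overlapped at the higher ratio and stood apart at the lower one. Below 0.6 the median ratio was 0.471 in members and 0.257 in all genes, with medians of 5 and 2 annotated starts. Members and all genes below that ratio were therefore not matched for CpG content or number of starts. This split was chosen after the data were examined.

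The 14 low-CpG genes with a window were Rpl11, Rpl12, Rpl13a, Rpl23a, Rpl24, Rpl27, Rpl38, Rpl39, Rpl6, Rps10, Rps2, Rps25, Rps27a and Rps4x. The ratio was 0.148 at Rps2, 0.215 at Rps10 and 0.328 at Rpl39. The single low-CpG member without a window was Rpl3l, the striated-muscle paralog of Rpl3, with a ratio of 0.0882. The ratio was taken at 1 representative start, and some of these windows lay at other starts of the gene, with summits 1951 and 1182 bp from the representative start at Rps2 and Rps10. With windows within 1 kb of the representative start alone, Rps2 and Rpl12 were without one, and the shares below the ratio of 0.6 were 12 of 15 members (80.0%, interval 54.8 to 93.0%) and 23.7% of all genes. Adding a minimum GC content of 50% to the definition gave 19 of 21 members outside the CpG-rich class (90.5%) and 32.0% of all genes outside it.

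The number of annotated starts also differed, with a median of 4 per member and 2 per gene over all. Members with 1 start had a window in 16 of 19 cases (84.2%), compared with 37.5% of all genes with 1 start. With 2 to 5 starts the values were 25 of 30 members (83.3%) and 55.7% of all genes. With 6 or more they were 26 of 30 members (86.7%) and 77.4% of all genes. The share in members hardly moved with the number of starts, while that of all genes rose.

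Many members had more than 1 promoter window. At least 2 windows were found at 36 of 79 members (45.6%), compared with 27.2% of all multi-exon genes, and at least 3 at 16 (20.3%), compared with 10.4%. Over the 79 genes, 12 had 0 windows, 31 had 1, 20 had 2, 11 had 3 and 5 had 4 or more. Among genes with any window the median was 2 in both the members and all multi-exon genes.

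**Figure D2:**
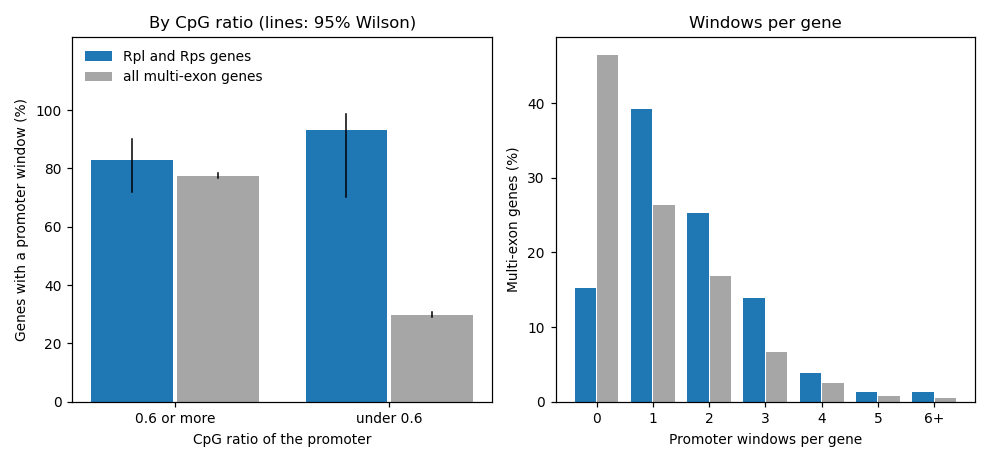
The left panel gives the percentage of Rpl and Rps genes (blue) and of all multi-exon genes (grey) with a promoter window by CpG ratio, with 95% Wilson intervals as lines, and the right panel the percentage of genes by number of promoter windows. Members and all genes are 82.8% and 77.5% at a ratio of 0.6 or more and 93.3% and 29.8% below it, and 15.2% of members have 0 windows against 46.5% of all genes.

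The 5 members with 4 or more windows encode large subunit proteins. Rpl24, which lies at the interface of the subunits, had 6 windows from 3 calls, with summits at 567 and 61 bp upstream, at the start base itself and at 243, 806 and 1166 bp downstream of the nearest of its 8 starts. Its model spans 42.6 kb (chr16:55966388-56009026), the longest among the members, and the windows fell at 2 groups of starts, 118 to 3153 bp and 7468 to 8774 bp from the outermost one. Within 1 kb of the outermost start alone Rpl24 had 2 windows. Whether this model of 11 exons covers more than 1 gene was not examined. Rpl7 had 5 windows, all summits of 1 call, from 712 bp upstream to 368 bp downstream of the nearest start, and 3 of them also lay at the promoter of Rdh10, a retinol dehydrogenase gene. Rpl10a, a protein of the mobile L1 stalk, had 4 windows from 4 calls, and Rpl6 had 4 windows from 4 calls with summits from 36 bp upstream to 4053 bp downstream of its outermost start, the last in a coding exon. Rpl18 had 4, each also at the promoter of Sphk2, a sphingosine kinase gene that runs the opposite way.

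Rpl14, Rpl21, Rpl27a, Rpl30 and Rpl35 had 3 windows each. The 3 Rpl14 windows were summits of 1 call at 879, 472 and 96 bp upstream of the start. Rpl30 had a pair from 1 call, 63 and 6 bp upstream of the nearest start of each, and a window 697 bp upstream. From the outermost start the pair lay 63 bp upstream and 474 bp downstream. At Rpl35 the 3 windows came from 3 calls, 257 and 220 bp upstream and 291 bp downstream of the nearest start. None of these 5 genes shared a promoter window with another protein-coding gene.

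The 127 promoter windows of the members came from 97 calls, of which 23 had several summits. Calls with several summits gave 53 of the 127 windows (41.7%), compared with 33.2% of all 17303 promoter windows and 18.2% of all windows in the list. Such a call lay at 22 of 79 members (27.8%) and at 14.4% of all multi-exon genes.

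Summits lay close to the annotated starts. Relative to the nearest start, the median position was 18 bp upstream, compared with 28 bp upstream over all multi-exon genes, and the median distance was 136 bp, compared with 179 bp. For each gene with a window, the closest summit was within 100 bp of a start at 49 of 67 members (73.1%) and 56.1% of all genes, and within 250 bp at 62 (92.5%) and 85.1%. Members have more annotated starts, and more starts shorten the distance to the nearest of them. Over genes with 1 start the median distance was 145 bp in members and 221 bp in all. By annotation, 56 of the 127 summits lay upstream of the gene, 27 in untranslated exon sequence, 11 in coding exons, 8 in exons of non-coding transcripts of the gene, 23 in introns and 2 downstream of it. The 2 downstream summits belonged to Rpl36, a gene of 0.849 kb whose window had its summit 880 bp from the start, and to Rps18.

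**Figure D3:**
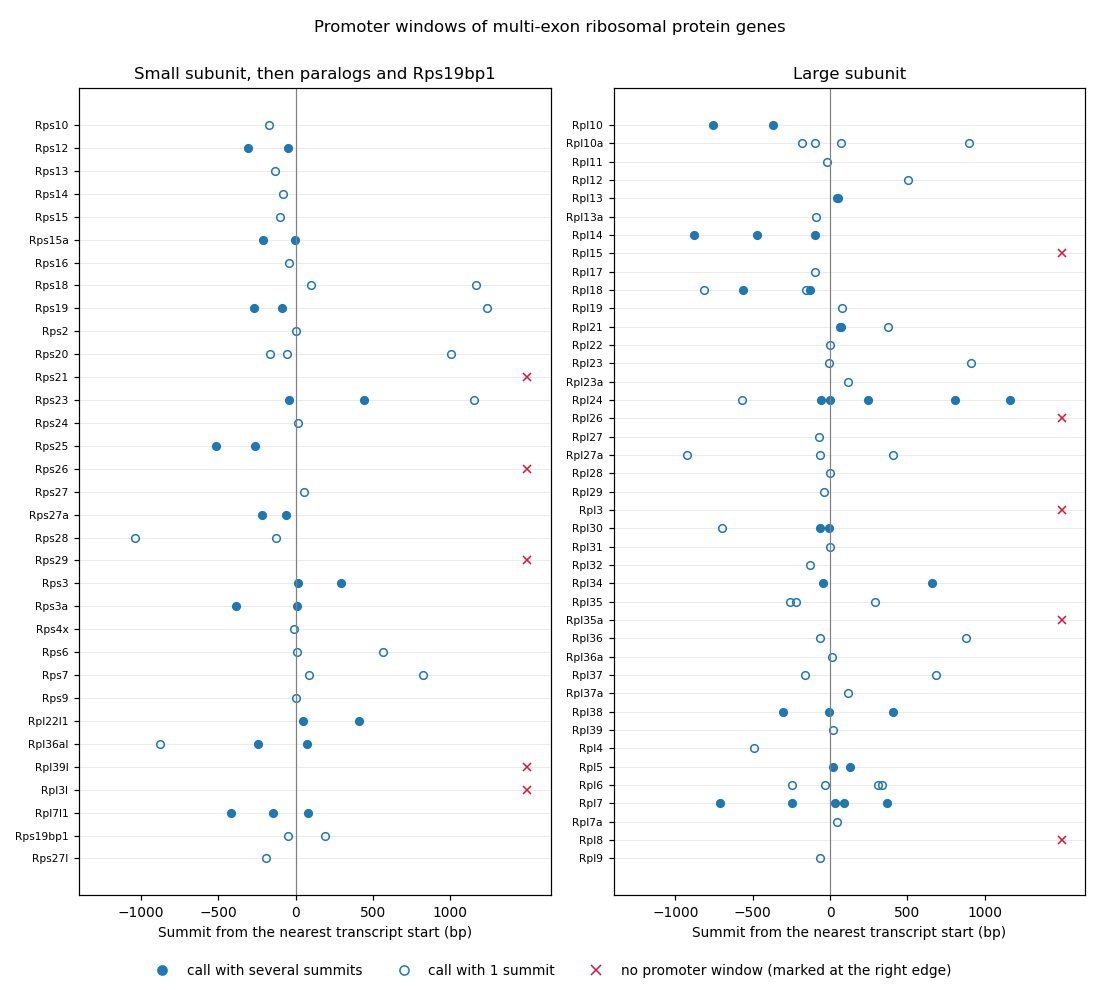
Each circle is the summit of 1 promoter window, placed by its distance in bp from the nearest transcript start of the multi-exon gene named on the left (negative is upstream), filled for calls with several summits and open for others, and crosses at the right edge mark genes without a promoter window. A few members are not drawn, and in most genes circles gather within 250 bp of the start.

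Of the 127 summits, 27 lay more than 500 bp from the nearest start (21.3%), compared with 25.2% over all multi-exon genes. Among those far upstream were Rps28 at 1038 bp and Rpl27a at 926 bp, and both genes had another summit within 250 bp of a start. Farthest downstream were Rps19 at 1236 bp, Rps18 at 1169 bp and Rpl24 at 1166 bp. The Rpl24 summit lay 8774 bp from the outermost start of its long model. The second Rps19 region, chr7:25670922-25671421, lay in an exon of a non-coding transcript of the gene. The downstream Rps18 window also lay at the promoter of B3galt4, a galactosyltransferase gene.

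**Figure D4:**
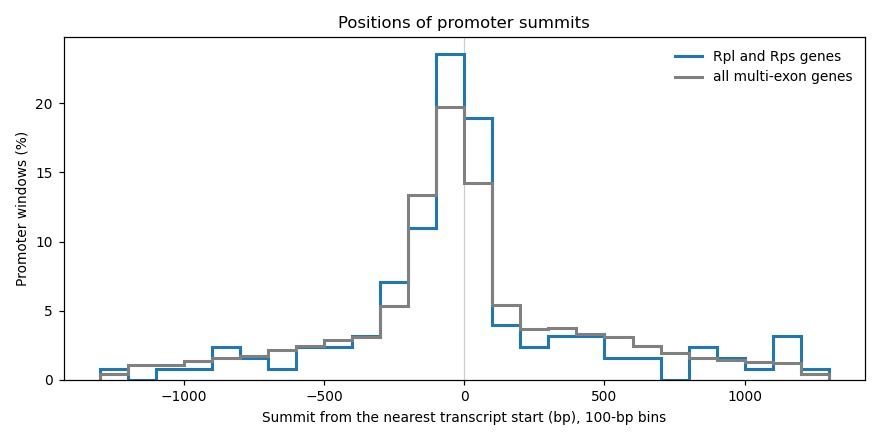
Lines give the percentage of promoter windows in 100-bp bins of summit position (bp from the nearest start) for Rpl and Rps genes (blue, 127 windows) and all multi-exon genes (grey). Members have 23.6% of summits in the bin before the start and 18.9% in the bin after it.

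The 12 multi-exon members without a promoter window were 5 of the small subunit, 5 of the large subunit and 2 paralogs. In the small subunit they included Rps21, Rps26 and Rps29. Rps26 lies at the channel through which mRNA leaves the ribosome, and Rps29 is a zinc-binding protein. In the large subunit they were Rpl3, Rpl8, Rpl15, Rpl26 and Rpl35a. Rpl3 and Rpl8 reach close to the peptidyl transferase centre, and Rpl26 lies at the exit of the peptide tunnel.

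These genes differed in how far away the next window lay. Rps21 had its nearest window at 2130 bp. A limit of 2.5 kb in place of 1 kb took in 3 of the 12, Rps21 among them, giving 70 of 79 members (88.6%) and 56.7% of all genes. Rpl8 followed at 3064 bp, Rpl35a at 4935 bp, Rpl3 at 5135 bp and Rps29 at 6166 bp. Rpl15, at 27067 bp, Rpl26, at 36299 bp, and Rps26, at 36354 bp, had no window anywhere in the gene or within 10 kb of it.

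Peak names carry running numbers in genome order, from which the calls absent from the list between neighbouring windows were counted. Between the windows that flank the 10 canonical genes, 2 to 9 numbered calls were missing. There were 2 in the 8.27 kb around Rps21, 2 in the 18.4 kb around Rpl3, 5 in the 84.1 kb around Rps26 and 6 in the 85.6 kb around Rpl26. Between the windows that flank Rpl39l and Rpl3l the number was 0, so by this numbering no call was left out of the list there. The positions of missing calls are unknown, and whether any lay at these promoters could not be determined.

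A window was found at 4 of the 8 paralogs, which include the 2 single-exon members. All 4 with a window had several exons. Over all genes the share was 53.5% for multi-exon and 11.4% for single-exon genes. Rpl22l1, the paralog of Rpl22, had 2 windows of 1 call, 46 and 410 bp downstream of its start. Rpl36al, an autosomal relative of the X-linked Rpl36a, had 3, all shared with the promoter of Mgat2, a glycosyltransferase gene on the opposite strand. Rpl7l1, a nucleolar protein of ribosome assembly, had 3 windows of 1 call from 421 bp upstream to 82 bp downstream. Rps27l, a paralog of Rps27 known as a p53 target, had 1 window with its summit 191 bp upstream. The 4 without a window were Rpl39l and Rpl10l, both known from the testis, Rpl3l from striated muscle, and Rps4y2.

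Both single-exon members lacked a promoter window, and 11.4% of all 2842 single-exon genes had one. Rpl10l had no window within 1110992 bp and Rps4y2 none within 55432 bp. With 2 genes the interval of the share ran from 0 to 65.8%, so a difference from other single-exon genes was not detectable. Their X-linked relatives, Rpl10 and Rps4x, both had windows.

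The annotation also holds 53 single-exon genes typed as protein-coding whose ribosomal protein symbols carry ps, the mark of processed copies made from mRNA by reverse transcription. Of these 3 had a window (5.66%, interval 1.94 to 15.4%), and the interval included the 11.4% of all single-exon genes. Rpl32-ps on chromosome 3 had a summit 87 bp downstream of its start. The summits at Rpl30-ps6 and Rpl7a-ps8 lay 1185 and 1086 bp upstream. Reads from such copies and their parent genes can be hard to place, and their mapping was not examined.

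The 4 X-linked members all had a promoter window, compared with 37.9% of the 823 multi-exon genes of that chromosome. Rpl36a, Rpl39 and Rps4x each had 1 window, with summits 11 and 22 bp downstream and 8 bp upstream of a start. Rpl10, which joins the large subunit late in its assembly, had 2 windows of 1 call, 757 and 368 bp upstream. Chromosome 7 held the most members, 13, of which 12 had a window, compared with 815 of the 1625 multi-exon genes of that chromosome. The share of members with a window was 82.4% on chromosomes 1 and 10 to 13, where 54.5% of all multi-exon genes had one, and 85.5% on the other chromosomes, where the share of all was 53.2%. On the former 29.6% of numbered calls were in the list, and on the others 41.3%.

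Diamond-Blackfan anaemia is an inherited failure of red cell production. Of the 9 members listed as its genes, 7 had a promoter window. The share was 84.8% over the multi-exon members and 53.5% over all multi-exon genes, and a difference of these 9 from the other members was not tested. Rps19, the gene most often mutated, had 3, and Rps7 and Rpl5 had 2. Rpl5 and Rpl11 form a complex with 5S ribosomal RNA that also binds Mdm2. The Rpl5 summits lay 21 and 127 bp downstream of the nearest start of each, and 91 and 499 bp downstream of the outermost start. The single Rpl11 summit lay 18 bp upstream of a start. Rps10 and Rps24 had 1 window each, with summits 171 bp upstream and 15 bp downstream of the nearest start. Rps26 and Rpl35a had none.

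Ribosomal protein genes that the naming rule leaves out showed windows at 5 of 6. Rplp0 had 2, Rplp1 1 and Rplp2 1, and these encode the acidic stalk that recruits translation factors. Rpsa, also known as the laminin receptor, had 2. Fau, which encodes a ribosomal protein fused to a ubiquitin-like protein, had none at its promoter and 4 within the gene or 10 kb of it. Adding these 6 genes gave a share of 84.7%.

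Small nucleolar RNAs, which guide modification of ribosomal RNA, lay inside 28 of the multi-exon members, 54 in all. Of these hosts, 26 had a promoter window (92.9%, interval 77.4 to 98.0%), compared with 41 of 51 members without one (80.4%, interval 67.5 to 89.0%), and the intervals overlapped. Over all multi-exon genes with such an RNA inside on the same strand, 207 of 269 had a window (77.0%). Rpl3 was among the 2 hosts without a promoter window.

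A protein-coding gene started on the opposite strand within 1 kb at 14 members. Such a neighbour was thus found at 17.7% of members (interval 10.9 to 27.6%) and 11.2% of all multi-exon genes. Of the 14 members, 12 had a window (85.7%), as did 85.8% of all genes with such a neighbour. Of the other 65 members 55 had one (84.6%), compared with 49.4% of all genes without such a neighbour. Rpl15 beside Nkiras1 and Rpl35a beside Iqcg had none. In total 23 of the 127 windows also lay at the promoter of another protein-coding gene (18.1%), compared with 11.9% of all promoter windows, and 11 members had only such windows. They included Rpl4 with Zwilch, Rpl9 with Lias, Rps25 with Trappc4, Rps27 with Rab13 and Rps28 with Ndufa7. At those genes a window cannot be assigned to one start or the other.

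Beyond promoters, windows in the gene body and 10 kb on either side were counted. The median was 1 window per multi-exon member and 1 per gene over all, although members are short, with a median length of 3.24 kb against 19.8 kb. Per 10 kb of sequence the median was 0.463 windows in members and 0.159 in all multi-exon genes. No such window was found at 22 of 79 members (27.8%) and at 40.8% of all genes. Of the 124 distinct windows, 48 lay at promoters of other protein-coding genes and 76 at none. The mean per gene was 1.61 in members and 1.72 in all multi-exon genes. Without windows at any promoter the means were 0.987 and 1.3, and the medians 1 and 0.

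The most such windows at a member were 5, found at Rpl35 among others, followed by 4, found at Rpl14 and Rpl24 among others. All 5 windows around Rpl35 were at promoters of its neighbours, Wdr38 and Arpc5l. At Rpl14, 3 of the 4 windows were summits of 1 call between 10754 and 11617 bp downstream of a start. All 4 windows of Rpl3l lay at promoters of neighbours, among them Rps2, which starts on the same strand with 5.9 kb between the genes.

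Exact words for transcription factor motifs were counted on both strands from 250 bases before to 50 after 1 representative start of each gene. The ETS word CCGGAAG was in 21 of 79 members (26.6%) and 12.0% of all multi-exon promoters, and the YY1 word AAGATGGC in 6 (7.59%) and 3.31%. The SP1 word GGGCGG was in 48.1% of members and 48.4% of all promoters, the NF-Y word CCAAT in 30.4% and 37.7%, the E-box CACGTG in 10.1% and 8.31% and the NRF1 word GCGCATGC in 3.8% and 3.69%. The TATA word TATAAA, sought between 40 and 15 bases before the start, was in 0 of 79 members and 2.31% of all promoters. A promoter window was found at 15 of the 21 members with the ETS word (71.4%) and at 52 of the 58 without it (89.7%), and the intervals (50.0 to 86.2% and 79.2 to 95.2%) overlapped. Over all multi-exon genes with the word the share was 82.7%, above the 53.5% of all multi-exon genes. The 6 members with that word and without a window included Rpl26, Rpl39l, Rpl8, Rps21 and Rps26.

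The annotated starts of some genes without a window and of some with most windows are shown for the TOP tract. Each is 30 bases of mm9, 15 before the start and 15 from the start base on, and capitals mark a run of at least 5 pyrimidines that begins with C within 10 bases of the start (as far as it lies in the 30 bases). Rpl14 and Rpl10a had windows and a run, Rpl26, Rps26, Rps21 and Rpl39l had a run but no window, Rpl24 and Rpl7 had windows but no run, and Rps29 had neither. Runs were counted on either side of the start, and the Rpl10a run lay wholly before it, outside the annotated transcript.
Rpl14, chr9:120480617-120480646, plus strand: cagggcgggCCCTCTCTCTTCTCgctgagc
Rpl10a, chr17:28465401-28465430, plus strand: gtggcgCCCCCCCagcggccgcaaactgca
Rpl26, chr11:68715070-68715099, plus strand: aaccggaagtcgcgtgtagttCTCTTTCCT
Rps26, chr10:128063548-128063577, minus strand: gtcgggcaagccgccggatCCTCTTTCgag
Rps21, chr2:179992067-179992096, plus strand: cttaccgaggacccgCCCTCCTgcccaata
Rpl39l, chr16:10170304-10170333, plus strand: agctcccaggCCTTTCCggatttccggtgg
Rpl24, chr16:55966373-55966402, plus strand: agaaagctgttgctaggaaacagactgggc
Rpl7, chr1:16094729-16094758, minus strand: cctggagaaattaagcccagagctgacgag
Rps29, chr12:70260159-70260188, minus strand: agcacgcggaccaatgttgtcgcacggcgt

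A run of at least 5 was found at 30 of 79 members (38.0%) and at 30.9% of all multi-exon genes. Runs of at least 7 were at 19 members (24.1%) and 11.9% of all, and runs of at least 9 at 7 members (8.86%) and 5.29%. The longest were 17 bases at Rpl32, 15 at Rpl22, 14 at Rpl14 and 12 at Rpl26, of which Rpl32 and Rpl22 were named after their values were seen. Among members with a run of at least 7, 15 of 19 had a promoter window (78.9%), compared with 52 of 60 without one (86.7%). The runs were read at annotated starts, not at mapped mRNA caps, and with the limit widened to 30 bases the shares were 79.7% of members and 61.1% of all.

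**Figure D5:**
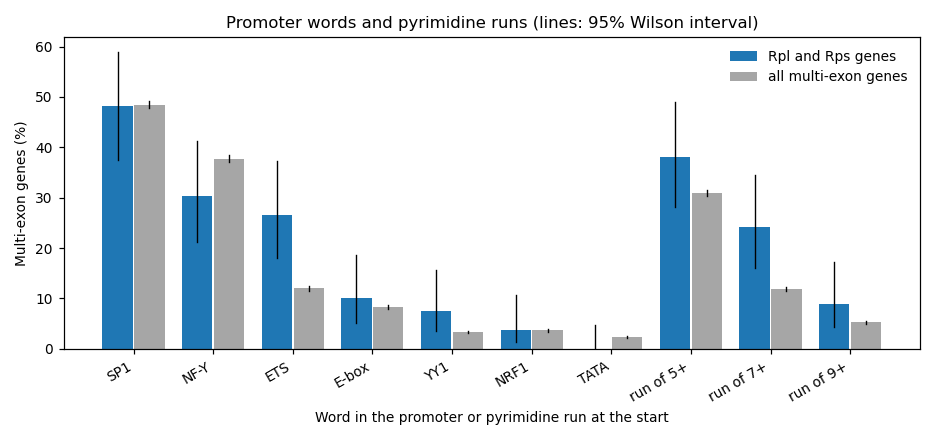
Bars give the percentage of Rpl and Rps genes (blue, 79 genes) and of all multi-exon genes (grey) with each exact word in the promoter or with a pyrimidine run of at least 5, 7 or 9 bases at the annotated start, with 95% Wilson intervals as lines. The ETS word is in 26.6% of members and 12.0% of all, a run of 7 in 24.1% and 11.9%, and the SP1 word in 48.1% and 48.4%.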

How the data were processed

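Single cells of 2 groups were profiled by Pi-ATAC (192 samples). According to the methods and the submitters' processing notes, the authors mapped reads to mm9 with Bowtie2 2.1.0, removed duplicates with Picard 1.79, called summits with MACS2 (version not given in the sources used here) and kept 50000 windows of 500 bp with the lowest q-values. The deposited values were window positions with a peak name, without score or count. Read depth was not analysed here.

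Gene models were GENCODE vM1 on NCBIM37, and all windows ended within its chromosome lengths. Windows were assigned with Python 3.11.15, numpy 2.4.6 and pandas 2.3.3, and sequences read with pysam 0.24.0. The list is 1 pooled sample without replicates, so no test was run. Assignment was checked on simulated data. Members, lists and words were chosen with earlier results of these data known.

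Named genes were the multi-exon members without a promoter window, the 10 with most promoter and 5 with most locus windows (ties by symbol), X-linked members, Diamond-Blackfan genes, paralogs, the 3 farthest summits each way, markers and ribosomal protein genes outside the rule. Other names were chosen after their values were seen. Some genes that this rule names are not reported here individually, and remain in the counts. Rpl41 had no protein-coding entry under that symbol. Alternatives covered the promoter distance, the starts used, overlap or summit, nearest gene, flank, merged windows, chromosomes, multi-summit calls, gene lists and run length.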

Additional observations from a re-analysis of the deposited data

How the results depend on the processing

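The share of multi-exon members with a promoter window (84.8%) ranged from 75.9 to 88.6% over 500 bp and 2.5 kb limits, summit position, protein-coding transcripts, the outermost start, the nearest gene, the canonical proteins, the 6 genes outside the rule, the chromosomes that keep more calls and, chosen after seeing the data, the list without Rps19bp1 (84.6%). With windows of multi-summit calls alone it was 27.8%, by construction of fewer windows. The single-exon share was 0 under every alternative that could be computed, and no canonical protein has a single-exon gene. The median of locus windows was 6 with a flank of 50 kb, a longer stretch of sequence, against 4 over all multi-exon genes (1 against 1 at 10 kb), and 0 to 2 under the other settings. The median summit position lay between 40 bp upstream and the start base. The share with a pyrimidine run at the start (38.0%) was 24.1% for runs of 7 or more and 79.7% within 30 bases, and 36.7% at the outermost start. No paired analysis was possible because the list pools the cells and carries no replicate. With no depth, score or replicate per window, a missing window cannot be told from a weak one where numbered calls are missing nearby, as they are not around Rpl39l and Rpl3l.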
